A study of Drosophila melanogaster with 8 samples.

Results

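The genes described here encode antimicrobial peptides of Drosophila melanogaster, small proteins that flies make against bacteria and fungi. Of 10 such genes chosen by name (AttA, AttB, AttC, AttD, DptA, DptB, Drs, Dro, Mtk and Def), 5 had a probe set annotated to that gene alone: AttD, DptB, Drs, Mtk and Def, each with 1 probe set. These 5 are among 11983 genes measured in the series. The other 5 were found in no probe set of the annotation, alone or with further genes, and are not analysed here. The samples were 8 pools of 8 whole adult females of the composite Zimbabwe strain SZ, which was bred from 6 lines. The females had been virgin and were 7 days old, and each mated once with a single male. In 4 pools the males were also SZ (ZxZ), and in the other 4 they were from LHM, an outbred cosmopolitan population that stands for the M strain (ZxM). The females were frozen 30 minutes after copulation ended, and each pool was hybridised to its own Affymetrix Drosophila Genome 2.0 array. All 8 pools were mated and all females came from 1 composite population, so the response to mating itself was not measured here. The comparison asks whether females responded differently to males of their own strain, which they prefer, and to males of the M strain.

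Antimicrobial peptide genes in flies are switched on mainly in the fat body, the insect counterpart of the liver, and also in barrier tissues such as the gut and reproductive tract. A pair of pathways controls them. The Imd pathway responds to the peptidoglycan of most Gram-negative bacteria and acts through the NF-kappaB factor Relish, and the Toll pathway responds to fungi and many Gram-positive bacteria and acts through Dif and Dorsal. Diptericins, attacins and defensin are read mostly as Imd targets, drosomycin as a Toll target, and metchnikowin as a target of both. Mating is known to raise several of these transcripts in females, and the male sex peptide in the ejaculate is a known trigger.

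The deposited values are log2 levels after variance stabilisation, which makes folds of weakly expressed genes too small. Levels of different probe sets cannot be set against each other, so each gene is compared only with itself across arrays. Pairs of arrays correlated at 0.996 to 0.998 over all probe sets. Differences were tested with limma with array weights as ZxZ minus ZxM on 5991 genes, the more variable 50% by interquartile range, and genes at 10% FDR are called. The weight was lowest in ZxM replicate 2 (0.505) and highest in ZxM replicate 1 (1.75), so a weighted difference can depart from the difference of the plain group means. The labels call the replicates biological, and the methods state that both kinds of mating were made in each of 4 replicates. The fit did not pair the pools by replicate, and p-values measure the spread between these pools. At 10% FDR the call fell on 1123 genes (18.7%), and 1057 of these had the lower level in ZxZ.

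None of the antimicrobial peptide genes was called. Mtk, DptB, Drs and Def passed the filter on variability and AttD did not, so 0 of 4 tested members stood against the 18.7% of all genes tested. In this fit by limma the smallest unadjusted p was 0.0774, for Mtk. The count at 10% FDR was 0 in 17 of the 21 other settings tried and 1 or 2 in the others, given with Mtk and DptB. In several of these 17, such as without array weights or after quantile normalization, 0 of all 5991 genes tested were called. A count of 0 members was certain there and says nothing about the members. In all 5 genes the ZxZ and ZxM arrays overlapped, whereas the groups did not overlap in 10.2% of the genes measured. The genes nevertheless varied strongly between pools. By the SD over the 8 arrays, Mtk ranked 1 and DptB 5 among the 11983 genes measured, Def ranked 181, Drs 246 and AttD 10620.

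Mtk encodes metchnikowin, a proline-rich peptide active against fungi and Gram-positive bacteria. Its log2 level in the ZxM pools was 11.65, 8.42, 8.68 and 7.99 in replicates 1 to 4. In the ZxZ pools it was 9.32, 8.40, 7.96 and 7.89. One array of each group stood above the rest, and both carry replicate number 1. In ZxM replicate 1 the level was 9.37 times the median of the other ZxM arrays, and in ZxZ replicate 1 it was 2.57 times the median of the other ZxZ arrays. The ZxZ mean was 8.39 ± 0.658 and the ZxM mean 9.18 ± 1.67 (SD, n = 4 each). The weighted log2 difference was -1.44 (SE 0.740, 95% confidence interval -3.07 to 0.19, adjusted p = 0.183 from limma), and the unweighted one was -0.79 (exact permutation test, two-sided, p = 0.486). This value rests on ZxM replicate 1, the array with the largest weight. Without it the difference was 0.12 (adjusted p = 0.811), and with both replicate 1 arrays left out, a choice made after the values were seen, it was -0.18 (adjusted p = 0.395). Mtk was called as lower in ZxZ without ZxM replicate 2 (-2.06, adjusted p = 0.0781), without ZxM replicate 4 (-2.72, adjusted p = 0.0288), without ZxZ replicate 1 (-1.81, adjusted p = 0.0852) and with arrays centred on their median (-2.01, adjusted p = 0.0452), all by limma. Centring there also re-chose the probe sets and the genes tested, and with both held Mtk was not called (-1.63, adjusted p = 0.111). Its adjusted p ran from 0.0288 to 0.811 over the 21 settings.

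DptB encodes diptericin B, a glycine-rich peptide active against Gram-negative bacteria, and lies beside DptA in the assembly Release 6 plus ISO1 MT. Its log2 level was 9.45, 7.36, 7.34 and 7.33 in ZxM replicates 1 to 4. In ZxZ it was 8.34, 7.43, 7.26 and 7.32. The pattern was that of Mtk, with ZxM replicate 1 highest and ZxZ replicate 1 second, and the other 6 arrays lay within 0.18 of each other on the log2 scale. ZxM replicate 1 was 4.33 times the median of the other ZxM arrays, and ZxZ replicate 1 was 2.02 times that of the other ZxZ arrays. The ZxZ mean was 7.59 ± 0.505 and the ZxM mean 7.87 ± 1.05 (SD, n = 4 each). DptB differed by -0.72 in the weighted fit (SE 0.477, 95% confidence interval -1.77 to 0.33, adjusted p = 0.282 from limma) and by -0.28 without weights (exact permutation test, two-sided, p = 0.686). Among replicates 2 to 4 the ZxZ mean was 7.34 ± 0.0891 and the ZxM mean 7.34 ± 0.0156 (SD, n = 3 each) (difference -0.0052, exact permutation test, two-sided, p = 0.9, where 3 arrays against 3 cannot go below 0.1). Without ZxM replicate 1 alone the ZxZ mean was higher by 0.24, unweighted. Without either replicate 1 array DptB fell below the variability filter and was not tested. It was called as lower in ZxZ without ZxM replicate 4 (-1.49, adjusted p = 0.0398) and with arrays centred on their median (-1.10, adjusted p = 0.0732), both by limma, but not with arrays centred and the probe sets and genes tested held (-0.86, adjusted p = 0.180).

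**Figure D1:**
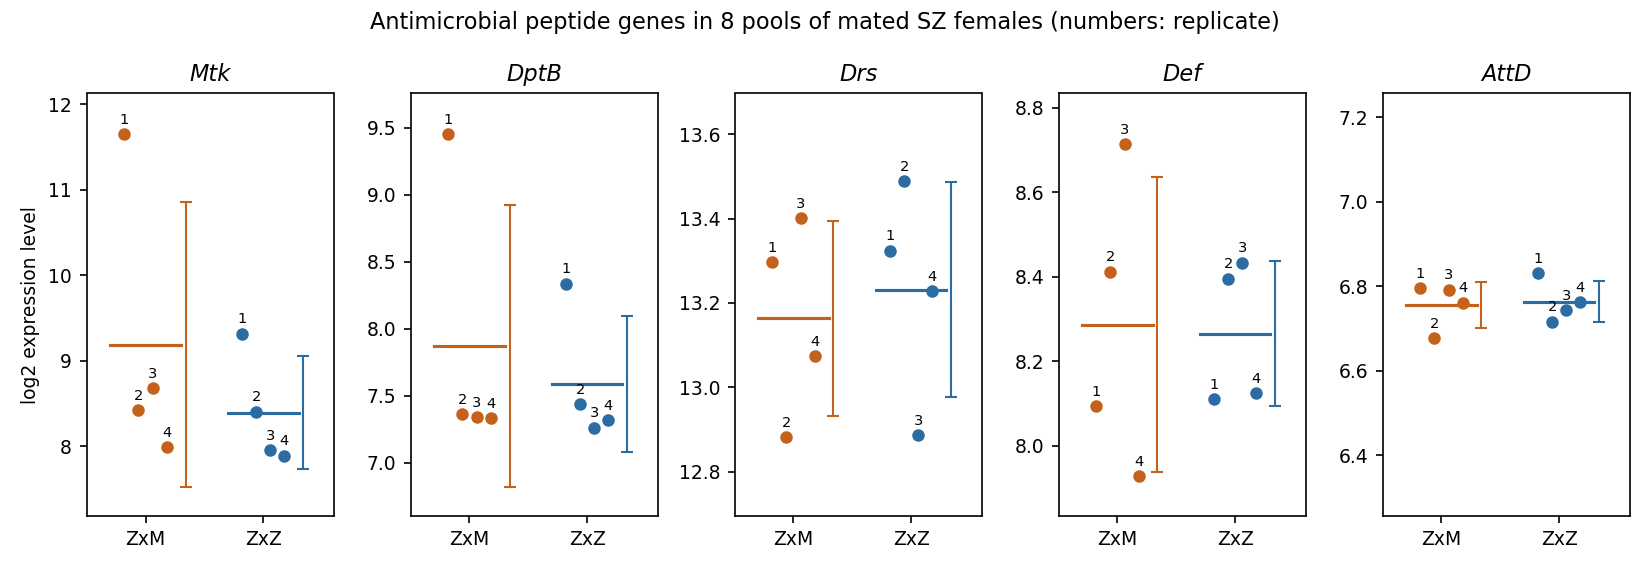
Log2 expression level of the 5 antimicrobial peptide genes in each of the 8 pools. Points are arrays with their replicate number, horizontal lines are group means and bars are ± SD (n = 4); each panel has its own axis, which does not start at 0. In Mtk and DptB replicate 1 is the highest array of both groups, at 11.65 and 9.45 in ZxM, and in Drs and Def the groups lie over each other.

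Drs and Def did not share this pattern. Drs encodes drosomycin, an antifungal peptide that the fat body makes on infection and that is also made constitutively in the female sperm storage organs. Its log2 level was 13.30, 12.88, 13.40 and 13.07 in ZxM replicates 1 to 4. In ZxZ it was 13.32, 13.49, 12.89 and 13.23. The highest array was ZxZ replicate 2 and the lowest ZxM replicate 2, and both groups covered nearly the same range. The ZxZ mean was 13.23 ± 0.254 and the ZxM mean 13.16 ± 0.231 (SD, n = 4 each). Drs differed by -0.037 (SE 0.131, 95% confidence interval -0.32 to 0.25, adjusted p = 0.845 from limma), and the unweighted difference had the other sign (0.068, exact permutation test, two-sided, p = 0.657). The interval holds the differences that these data, with 4 pools a group, do not exclude.

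Def encodes defensin, a cysteine-rich peptide active mainly against Gram-positive bacteria. Its log2 level was 8.09, 8.41, 8.71 and 7.93 in ZxM replicates 1 to 4. In ZxZ it was 8.11, 8.40, 8.43 and 8.12. Here replicate 1 was among the lower arrays of both groups, at 0.801 times the median of the others in ZxM and 0.820 times in ZxZ. The ZxM arrays enclosed all ZxZ arrays. The ZxZ mean was 8.27 ± 0.172 and the ZxM mean 8.29 ± 0.349 (SD, n = 4 each). Def differed by 0.072 (SE 0.143, 95% confidence interval -0.24 to 0.39, adjusted p = 0.721 from limma), and by -0.021 without weights (exact permutation test, two-sided, p = 0.943).

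AttD, a member of the attacin family that lacks a signal for secretion, stayed at the low end of the scale. Its log2 level was 6.79, 6.68, 6.79 and 6.76 in ZxM replicates 1 to 4. In ZxZ it was 6.83, 6.72, 6.74 and 6.76. These values lie near the lower quartile of the arrays (6.74 to 6.81), where a level cannot be told from no expression. The ZxZ mean was 6.76 ± 0.0491 and the ZxM mean 6.76 ± 0.0552 (SD, n = 4 each) (unweighted difference 0.0076, exact permutation test, two-sided, p = 0.886, where 4 arrays against 4 cannot go below 0.0286). In a fit over all measured genes AttD differed by -0.0031 (95% confidence interval -0.094 to 0.088, adjusted p = 0.971 from limma).

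**Figure D2:**
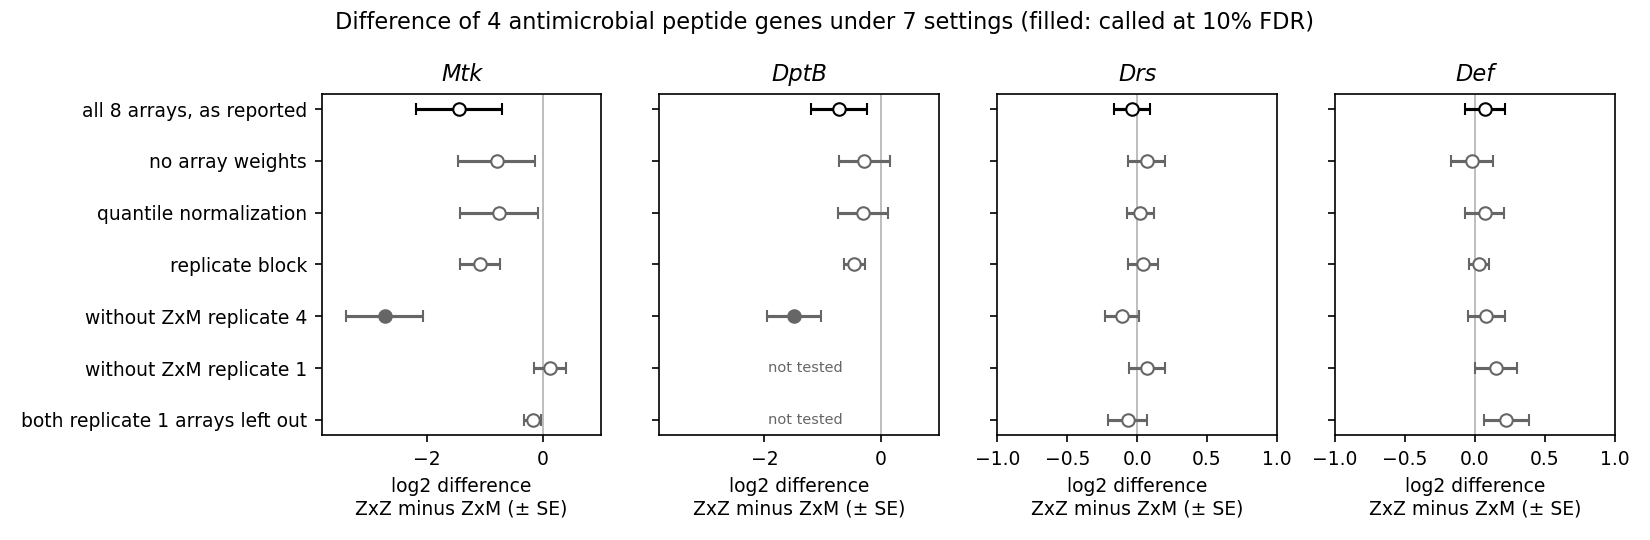
Log2 difference ZxZ minus ZxM (± SE) of the 4 tested members under 7 settings; filled points are called at 10% FDR and open points are not, and the axes of Drs and Def are narrower. Mtk moves from -2.72 without ZxM replicate 4 to 0.12 without ZxM replicate 1, while Drs and Def stay near 0 on this scale.

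Replicate 1 lay above the other 3 arrays in both groups for 824 of the 11983 genes measured (6.88%). Among the 5 members this held for Mtk, DptB and AttD, the last by less than 0.1 on the log2 scale. After quantile normalization or centring on the median it still held for Mtk and DptB, with 8.85-fold and 9.66-fold for Mtk in ZxM replicate 1, and no longer for AttD. The labels do not say whether arrays with the same number share a day or a batch. Over all genes the deviations of same-numbered arrays from their group means correlated at 0.144, -0.264, -0.196 and 0.157 for replicates 1 to 4. Arrays with unlike numbers gave -0.205 to 0.289, and ZxM replicate 1 with ZxZ replicate 2 gave 0.143. The part of a shared batch in the result was not tested.

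Other effectors of the humoral response were taken from a list of 34 genes, of which 20 were measured and 13 tested. None was called in either direction, against 18.7% of all genes tested. The list had a median log2 difference of -0.020, beside -0.033 for all genes measured, and 12 of its 20 members had a negative difference, beside 62.5% of all genes. The median turned to 0.010, with 7 negative, when the arrays were quantile normalized. The highest of the 8 arrays was a replicate 1 array for 12 of the 20 genes (6 in each group), beside 20.2% of all genes measured. Bomanins are short secreted peptides that the Toll pathway induces and that protect flies against fungi and some bacteria. Of 8 measured bomanin genes, all tested and none called, 7 had replicate 1 above the other arrays in both groups, as against the 6.88% of all genes. These bomanins were singled out after their values were seen, and the 7 kept this order after quantile normalization and after centring.
BomBc3 had a log2 level of 11.15, 10.02, 10.66 and 9.50 in ZxM replicates 1 to 4. In ZxZ it was 11.66, 9.97, 9.92 and 9.30. Unlike Mtk and DptB, it was higher in ZxZ replicate 1 (3.33 times the median of the other ZxZ arrays) than in ZxM replicate 1 (2.19 times that of the other ZxM arrays). BomS5 was at 11.53 in ZxM replicate 1 and 11.41 in ZxZ replicate 1, against 9.75 to 10.46 in the other 6 arrays. BomS2 and BomBc2 were raised in these 2 arrays by 1.32 to 1.78 times. Their log2 differences between the groups were -0.39 (SE 0.211, adjusted p = 0.198 from limma) for BomS2, -0.24 (SE 0.143, adjusted p = 0.231) for BomBc2 and -0.53 (SE 0.375, adjusted p = 0.305) for BomS5. BomS4, the eighth bomanin, did not share the order.
The relatives of drosomycin varied to different degrees. Drsl4 and Drsl5, with an SD over the 8 arrays of 0.293 and 0.245, were highest in ZxM replicate 1, at 1.45 and 1.40 times the median of the other ZxM arrays. In ZxZ replicate 2 was the highest array for both, at 10.93 and 10.61, against 10.84 and 10.14 in replicate 1. Their log2 differences of -0.20 (SE 0.178, adjusted p = 0.415 from limma) and -0.19 (SE 0.145, adjusted p = 0.329) did not pass. Both genes were added to the named genes after their values were seen. Drsl1 averaged 7.25 ± 0.0412 over the ZxZ pools and 7.16 ± 0.0307 over the ZxM pools (SD, n = 4 each), which did not overlap, and did not pass the variability filter (log2 difference 0.10, unadjusted p = 0.0189, adjusted p = 0.172 over all measured genes from limma). Groups without overlap came to 1 of the 20 effectors measured, beside 10.2% of all genes measured. Drsl2 differed by 0.10 (SE 0.0584, adjusted p = 0.216). CecB, which encodes a cecropin that forms pores in bacterial membranes, stayed between 7.70 and 7.88, and Anp, the male-specific andropin, between 6.64 and 6.74.

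**Figure D3:**
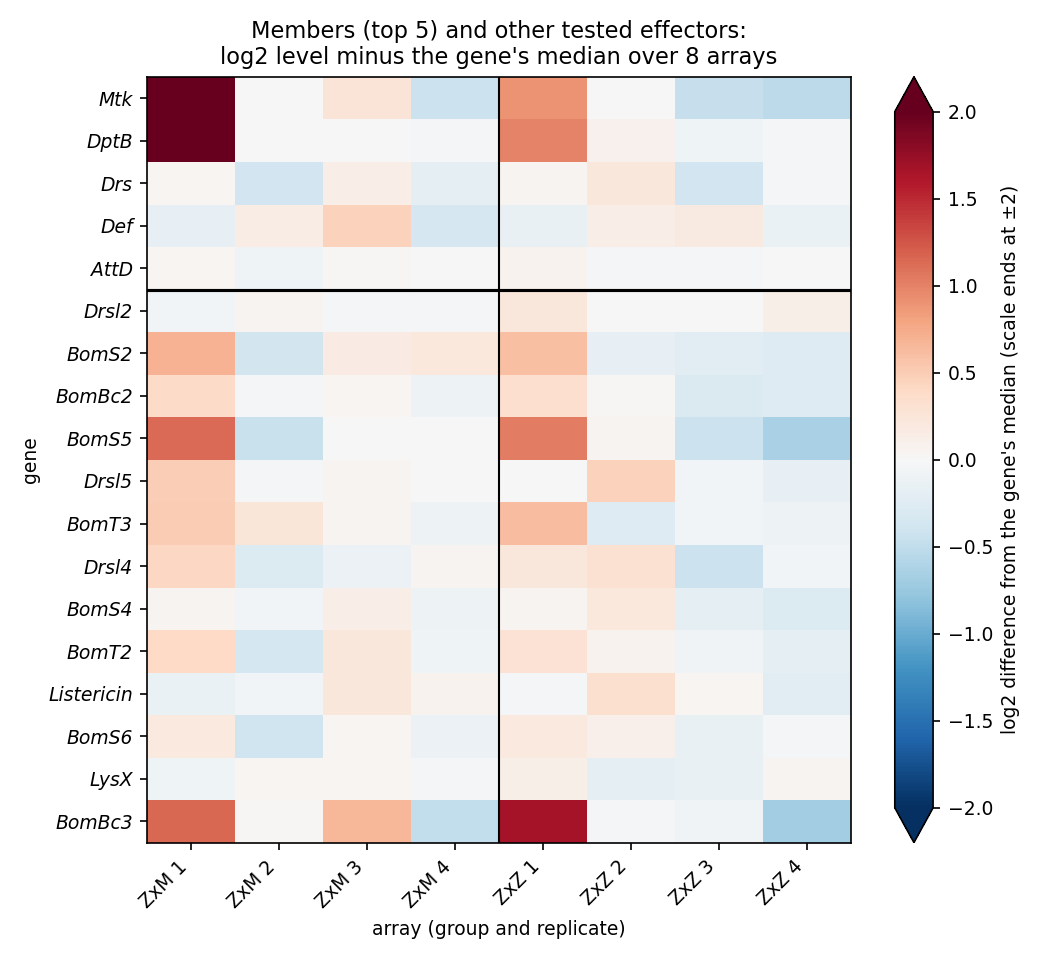
Log2 level minus the gene's own median over the 8 arrays, for the 5 members (above the line) and the 13 other tested effectors, by array; red is higher and blue lower, and the colour scale ends at 2. ZxM replicate 1 and ZxZ replicate 1 are red for Mtk, DptB and 7 of the 8 bomanins, and Drs, Def and Listericin do not follow them.

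Genes of the Imd pathway, which lies upstream of DptB, Def and part of Mtk, were measured for 23 of 29 listed. Of 18 tested, 1 was lower in ZxZ and the other 17 did not pass in either direction, against 17.6% called lower and 1.10% called higher among all genes tested. The called gene was PGRP-LE, which encodes an intracellular receptor for peptidoglycan. It averaged 9.75 ± 0.0537 over the ZxZ pools and 9.95 ± 0.0682 over the ZxM pools (SD, n = 4 each), which did not overlap (difference -0.19, SE 0.0519, adjusted p = 0.0874 from limma). The groups did not overlap either for pirk, a negative regulator at the receptors (-0.22, SE 0.0811, adjusted p = 0.103), or for casp, which restrains Relish and did not pass the variability filter (-0.11 in the fit over all measured genes). Groups without overlap came to 3 of the 23 genes, near the 10.2% of all genes measured. PGRP-LB, an enzyme that degrades peptidoglycan, differed by -0.15 (SE 0.0559, adjusted p = 0.103).
All 23 measured members had a negative difference, beside 62.5% of all genes, with a median of -0.11 beside -0.033 for all genes. With quantile normalized arrays the median was -0.021 and 16 of 23 were negative, beside 49.8% of all genes. There limma called none at 10% FDR, nor any other gene of the series. No gene of the Imd, Toll or JAK/STAT lists was called either when the array left out was replicate 1 or 3 of ZxM, or replicate 3 or 4 of ZxZ. In these fits too no gene of the series was called. The count of Imd genes called rose to 10 without ZxM replicate 2, 12 without ZxM replicate 4, 12 without ZxZ replicate 1 and 10 without ZxZ replicate 2, and the count over all genes rose to between 2400 and 2968. The mean level of the list ran from 9.59 to 9.73 in ZxZ and from 9.73 to 9.85 in ZxM. Near this level the arrays as a whole differed in the same direction. The upper quartile of all probe sets was 9.45 to 9.53 in ZxZ and 9.54 to 9.63 in ZxM. Whether the list moved beyond that was not tested.

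In the Toll pathway, which lies upstream of Drs, the bomanins and part of Mtk, 21 of 25 listed genes were measured and 12 tested. Here 2 were lower in ZxZ and 10 did not pass in either direction, against 17.6% called lower among all genes tested. Myd88, the adaptor below the receptor, averaged 9.56 ± 0.0577 over the ZxZ pools and 9.71 ± 0.0149 over the ZxM pools (SD, n = 4 each) (difference -0.15, SE 0.0460, adjusted p = 0.0888 from limma). Pli, which encodes Pellino, averaged 9.17 ± 0.0854 over the ZxZ pools and 9.35 ± 0.0641 over the ZxM pools (SD, n = 4 each) (difference -0.17, SE 0.0560, adjusted p = 0.0903). Deaf1, a transcription factor that acts on Drs and Mtk (-0.12, adjusted p = 0.111), and Traf6 (-0.16, adjusted p = 0.108) did not pass. The list's median of -0.091 was -0.018 after quantile normalization, where no gene of the series was called. As deposited 14 of its 21 members had a negative difference, beside 62.5% of all genes.
Among 11 measured regulators of the JAK/STAT and JNK pathways, which also shape the immune response, 7 were tested and 2 were lower, against 17.6% of all genes tested: hep, a kinase that activates JNK (-0.29, SE 0.0742, adjusted p = 0.0866), and dome, the JAK/STAT receptor (-0.17, SE 0.0564, adjusted p = 0.0933). Su(var)2-10 (-0.15, adjusted p = 0.120) and puc, a phosphatase that dampens JNK signalling (-0.17, adjusted p = 0.111), did not pass. The list's median of -0.098 became -0.043 after quantile normalization.

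**Figure D4:**
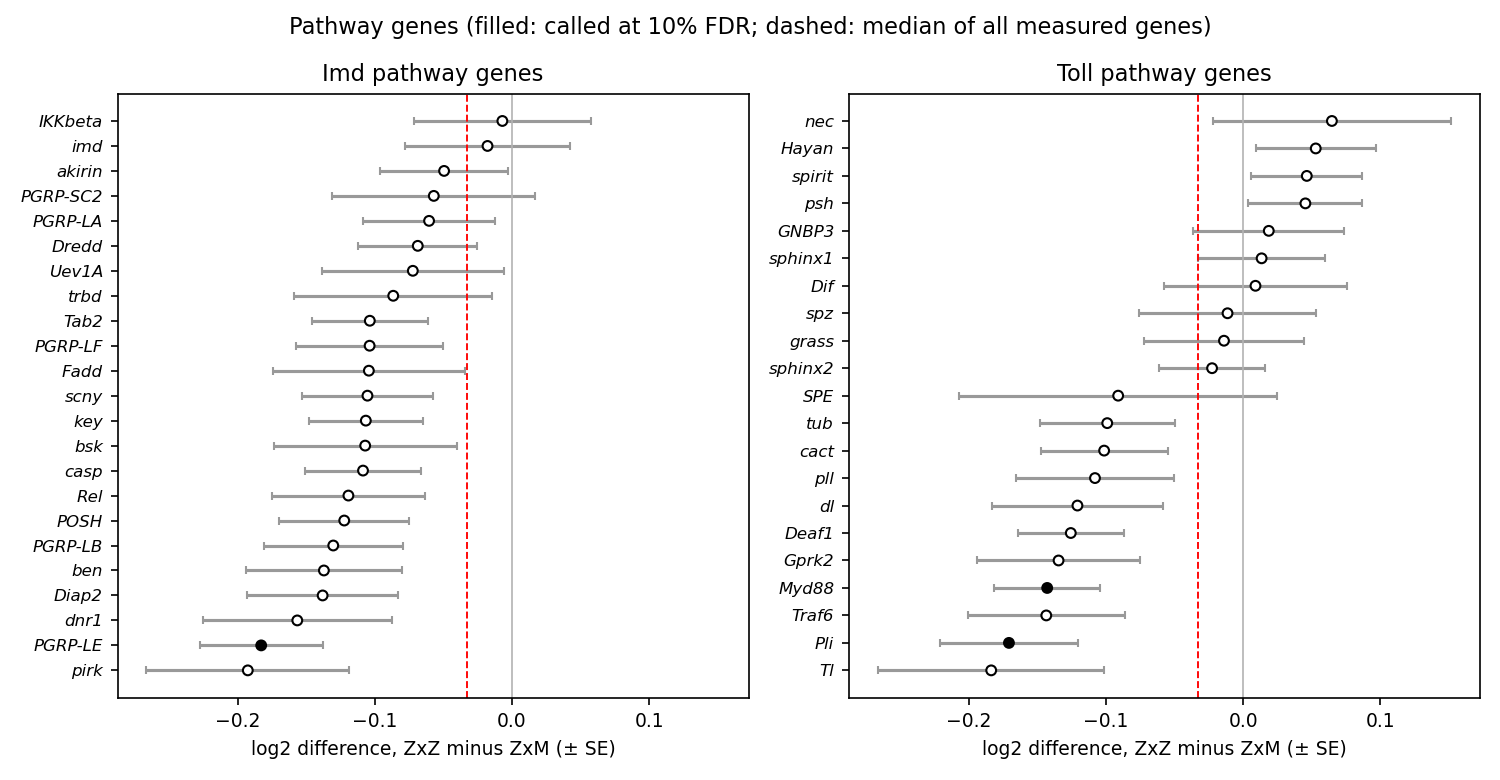
Log2 difference ZxZ minus ZxM (± SE, fit over all measured genes) of the measured Imd and Toll pathway genes; filled points are called at 10% FDR in the test of the more variable genes, and the dashed line is the median of all measured genes (-0.033). PGRP-LE, Myd88 and Pli are the filled points. All 23 Imd genes lie below 0 in the values as deposited, beside 62.5% of all genes. With quantile normalized arrays 16 of 23 do, beside 49.8%.

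The genes whose values followed the mean of the 5 members most closely over the 8 arrays, of 5987 searched, were Gk1 (Pearson's r = 0.972), PGRP-SB1 (0.962), CG4259 (0.951), CG11858 (0.940) and teq (0.940). The mean is carried by Mtk and DptB, and all 5 genes were highest in ZxM replicate 1. Over the other 6 arrays, without replicate 1, r was 0.910, 0.806, 0.796, 0.844 and 0.683. Arrays of 1 series share their processing, and the genes were picked for these values, so r is a description. PGRP-SB1, a secreted peptidoglycan recognition protein, was at 10.39 in ZxM replicate 1 and 9.85 in ZxZ replicate 1, which is 2.02 and 1.40 times the median of the other arrays of each group. None of the 5 was called, and the range of Gk1 over all arrays was only 0.24 on the log2 scale.

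In whole flies, fewer cells of a type and less RNA per cell cannot be told apart, so marker genes of the tissues that make these peptides were read beside them. The 15 measured fat body markers include the yolk protein genes that female fat body and follicle cells express. Of 12 tested, 1 was lower in ZxZ (17.6% of all genes tested), 1 was higher (1.10%) and 10 did not pass. The lower one was srp, a GATA factor of fat body and haemocytes that acts on antimicrobial peptide genes, with a ZxZ mean of 8.67 ± 0.207 and a ZxM mean of 9.03 ± 0.10 (SD, n = 4 each) (difference -0.42, SE 0.0924, adjusted p = 0.0866 from limma). The higher one was Yp3, with a ZxZ mean of 14.70 ± 0.0648 and a ZxM mean of 14.51 ± 0.0836 (SD, n = 4 each) (difference 0.17, SE 0.0580, adjusted p = 0.0963), while Yp1 (0.15, adjusted p = 0.136) and Yp2 (0.10, adjusted p = 0.267) did not pass. Levels of the fat body list averaged 10.89 to 11.12 in ZxZ and 10.86 to 11.05 in ZxM, with ZxM replicate 1 at 11.03 and ZxZ replicate 1 at 11.12.
Of 17 measured haemocyte markers 11 were tested. Among these srp alone was called, as lower, against 17.6% called lower among all genes tested. The list's mean was 8.65 to 8.84 in ZxZ and 8.70 to 8.83 in ZxM. The next by p were crq, a scavenger receptor of macrophages (-0.13, adjusted p = 0.184), peb (-0.094 over all measured genes) and Fer1HCH, a ferritin subunit (0.065, adjusted p = 0.464). Of 15 measured gut markers 14 were tested and none was called, against 18.7% of all genes tested. First by p were Mur18B (0.19, adjusted p = 0.148), Jon99Ci (-0.17, adjusted p = 0.131), Mal-A1 (0.11, adjusted p = 0.426) and Jon25Bi (-0.24, adjusted p = 0.218). This list's mean was 11.10 to 11.52 in ZxZ and 11.38 to 11.56 in ZxM. No gut marker had its highest level in a replicate 1 array. The part of these tissues in the members' values was not tested.
Of 20 measured genes of the male accessory gland and ejaculatory duct, 7 were tested. SP alone was called, and it was higher in ZxZ, against 1.10% called higher among all genes tested. Its mean was 6.74 ± 0.0508 after mating with SZ males and 6.60 ± 0.0342 after mating with LHM males (SD, n = 4 each) (difference 0.16, SE 0.0460, adjusted p = 0.0874 from limma). It encodes the sex peptide. Its values of 6.56 to 6.79 lie near or below the lower quartile of the arrays, where a level cannot be told from no expression. That quartile was 6.77 to 6.81 in ZxZ and 6.74 to 6.79 in ZxM. Whether SP moved beyond the arrays as a whole was not tested. Ebp (0.11) and Acp76A (0.094) did not pass the variability filter, and Acp32CD differed by 0.11 (adjusted p = 0.146). The list averaged 7.10 to 7.13 in ZxZ and 7.07 to 7.10 in ZxM, and its median difference of 0.0086 turned to -0.025 with arrays centred on their median. With quantile normalized arrays no gene of these 4 marker lists was called, nor any other of the 5991 genes tested.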

How the data were processed

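Whole SZ females were pooled, and total RNA of each pool was hybridised to an Affymetrix Drosophila Genome 2.0 array. The authors deposited log2 values of 18952 probe sets. Their methods name VSN for background, calibration and transformation, and RMA for summaries, and the processing notes name affy and R 2.8.1. VSN compresses differences between low values. Signal over background was not analysed here.

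Gene names came from the platform annotation, with symbols brought up to date by Entrez number: 13647 probe sets have 1 gene and 402 several, and the latter were not used. Each of 11983 genes was represented, as in the methods, by its most variable probe set. The methods remove genes with a low interquartile range at 0.5, read here as a quantile (a range above 0.0908 was kept). The fit was limma 3.58.1 in R 4.3.3 (lmFit, arrayWeights by REML, eBayes), two-sided, with Benjamini-Hochberg adjustment over all 5991 genes tested. It was tried first on simulated data with independent noise of equal spread on every array and no shift of whole arrays. That trial could not show how the fit behaves with unequal or shifted arrays. Single members were also compared by exact permutation of the 8 arrays. Lists are described by counts and medians, without a set test.

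The named genes are the 10 members, up to 4 genes of each of 8 lists with the smallest p, any list gene called and the 5 genes most like the members' mean; the bomanins beyond these, Drsl4 and Drsl5 were added after their values were seen. Members and lists were chosen with earlier results of these data known. Alternatives changed the weights, filter, probe sets, scaling, low values, block, prior and arrays. Same-numbered replicates were taken as unpaired, since the correlations of their deviations were not all above 0.1. The methods do describe both matings in each replicate, so a fit with the replicate number as a block is among the alternatives. No sequence is printed, as the reference tables used here hold none.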

Additional observations from a re-analysis of the deposited data

Results flagged for a closer look

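Within a group of 4 arrays, the larger of the gaps at both ends, from the highest or the lowest array to its nearest, was divided by the group's whole range and set against Dixon's 95% critical value for 4 samples. Of 10 such groups (5 genes in ZxZ and ZxM), 2 passed, both for DptB: ZxM replicate 1 at 0.986, with a log2 level of 9.45, and ZxZ replicate 1 at 0.837, with 8.34. Chance flags about 5% of groups. Mtk had the same arrays on top and gave 0.813 in ZxM and 0.640 in ZxZ, which did not pass.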

How the results depend on the processing

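The members' differences depended on the arrays used. Of 21 other settings, Mtk was negative in 20 and positive without ZxM replicate 1 (0.12). DptB was negative in all 17 in which it was tested. The filter removed DptB wherever a replicate 1 array was left out, so this count could not include those settings. Unweighted, DptB differed there by 0.24 without ZxM replicate 1, -0.53 without ZxZ replicate 1 and -0.0052 without both. Most settings keep ZxM replicate 1, so the counts do not show a stable direction. Leaving out each array gave -2.72 to 0.12 for Mtk, -0.17 to 0.14 for Drs and -0.014 to 0.21 for Def. Drs changed sign without array weights and by the methods' t-test (both 0.068), without the variability filter (0.028), after quantile normalization (0.021, and 0.0068 with probe sets and genes held, an alternative chosen after seeing the data) and with the replicate number as a block (0.044). Def changed sign without weights and by the plain t-test (both -0.021). The cause was not tested.
The number of members called was 2 with arrays centred on their median, 0 with arrays centred and probe sets and genes held, and 0 to 2 when each array was left out. The number of all genes called was 0 without weights (1365 at an unadjusted p under 0.05), without a filter on variability (2529), with a minimum interquartile range of 0.5 (5) and after quantile normalization (569). It was 1 with the replicate block and 10 by the plain t-test, which unlike the methods used no array weights and no moderation. It was 3674 with arrays centred (2500 with probe sets and genes held), and 0 to 2968 when each array was left out. With the replicate block Mtk differed by -1.09 (unadjusted p = 0.0102, adjusted p = 0.137) and DptB by -0.46 (unadjusted p = 0.0320, adjusted p = 0.167) in limma, and neither was called. Same-numbered arrays were not shown to be pairs.
In each setting that left 0 or 1 call over all genes, and by the plain t-test, no gene of the Imd, Toll, JAK/STAT or other effector lists was called (0). With arrays centred the counts were 15 Imd, 11 Toll, 6 JAK/STAT and 5 other effector genes, beside 3674 over all genes. With probe sets and genes held they were 12, 7, 6 and 0, beside 2500. With the lowest 25% of probe sets left out they were 5 of 17, 5 of 12, 3 of 7 and 0 of 13, beside 1474 of 5070 genes. The brightest probe set of each gene gave 5 of 18 Imd genes, beside 1353 of 5991 genes. A trend and robust prior gave 3 of 18 Imd and 3 of 7 JAK/STAT genes, beside 1159 of 5991. Without both replicate 1 arrays 5 of 17 Imd, 3 of 15 Toll, 1 of 6 JAK/STAT and 1 of 12 other effector genes were called, beside 953 of 5991. Leaving out each array gave 0 to 12 Imd, 0 to 8 Toll, 0 to 6 JAK/STAT and 0 to 7 other effector genes, beside 0 to 2968 over all genes. The median of all genes moved from -0.033 to 0.00023 after quantile normalization and to -0.065 with arrays centred, both with probe sets and genes held.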
